A study of Mus musculus with 2 samples.

Results

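Fibroblast growth factor (FGF) ligands, their receptors and the genes of the ERK pathway were described in mouse embryonic stem (ES) cells held in the ground state. The 49 genes were chosen by name and sorted into 13 FGF genes, 4 receptors, 15 genes of the signalling cascade, 9 feedback inhibitors and 8 target genes. All 49 were found, by symbol, among the 28592 genes of the deposited table. The cells were the E14TG2a line in 2i/LIF, a medium with inhibitors of MEK and GSK3 and with leukaemia inhibitory factor, and the only group was made of 2 replicates. No other medium was sampled, so the levels below describe cells in which MEK was inhibited throughout, and nothing shows what the inhibitor changed. The labels give 1 cell line. They leave unsaid whether each replicate was its own culture, and the SDs may therefore reflect technical variation alone.

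FGFs bind FGF receptors on the cell surface together with heparan sulfate. The docking protein Frs2, the adaptor Grb2 and the exchange factors Sos1 and Sos2 then load RAS with GTP, and RAF, MEK and ERK kinases pass the signal on to the nucleus. There, ERK activity induces transcription factors such as Etv4, Etv5, Egr1 and Fos. It also induces Sprouty and Spred proteins and dual-specificity phosphatases (DUSPs) that restrain the pathway. In mouse ES cells, Fgf4 made by the cells themselves is known to drive ERK and to prepare exit from naive pluripotency, which is why 2i medium blocks MEK.

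Levels are FPKM, the authors' fragment counts scaled to transcript length and to the mapped fragments of the library, so levels of different genes can be set side by side. Each gene is given with its replicate 1 and replicate 2 values in that order, or as mean ± SD (n = 2). Detection required an FPKM of 1 or more in each of the replicates. With 2 replicates of a single group no test between conditions exists. A pair of genes is said to lie apart where the replicate values of one were all above those of the other. How often genes outside the lists lie apart was not computed, so counts of such pairs or steps describe the named genes only. FPKM summed to 946498 and 928174 over all genes. The number of reads is not known.

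Most cascade genes were detected, and most FGF and receptor genes were not. Of the 49 genes 29 were detected (59.2%), against 39.4% of all genes and 50.6% of the 20331 genes typed as protein-coding. By role, 14 of 15 cascade genes, 6 of 9 feedback genes, 4 of 8 targets, 4 of 13 FGF genes and 1 of 4 receptors were detected. The median FPKM was 10.8 ± 0.446 for the cascade, 2.13 ± 0.334 for targets, 1.67 ± 0.230 for feedback genes, 0.389 ± 0.0992 for receptors and 0.186 for FGF genes. Each SD was taken over the medians of replicate 1 and replicate 2, which for FGF genes were 0.116 and 0.310. The median of all protein-coding genes was 1.22. A level of 20 FPKM or more in each replicate was reached by 8 members (16.3%), against 19.3% of protein-coding genes. These were Etv5, Nras, Fgf4, Map2k1, Map2k2, Hras, Rps6ka1 and Araf, 6 of them cascade genes. These are bulk RNA values, in which fewer expressing cells and less RNA per cell cannot be told apart.

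**Figure D1:**
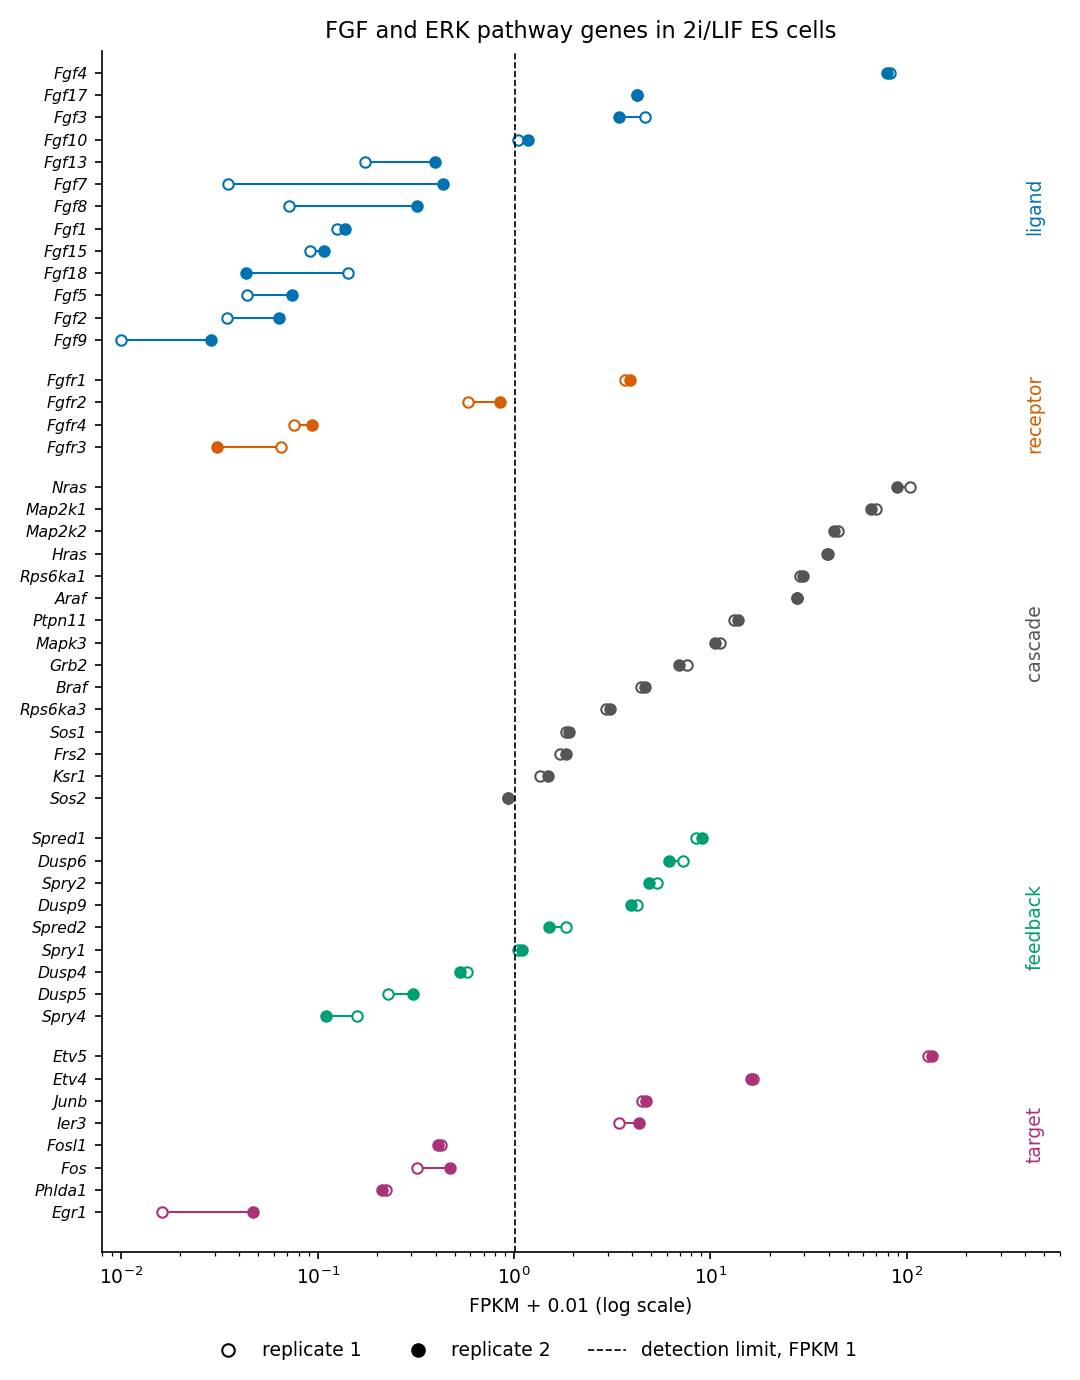
FPKM of each of the 49 genes, plus 0.01, on a log axis, by role (open circles replicate 1, filled circles replicate 2, dashed line the detection limit of 1). The cascade genes lie to the right of the line except Sos2, while 9 of 13 FGF genes and 3 of 4 receptors lie to its left.

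**Figure D2:**
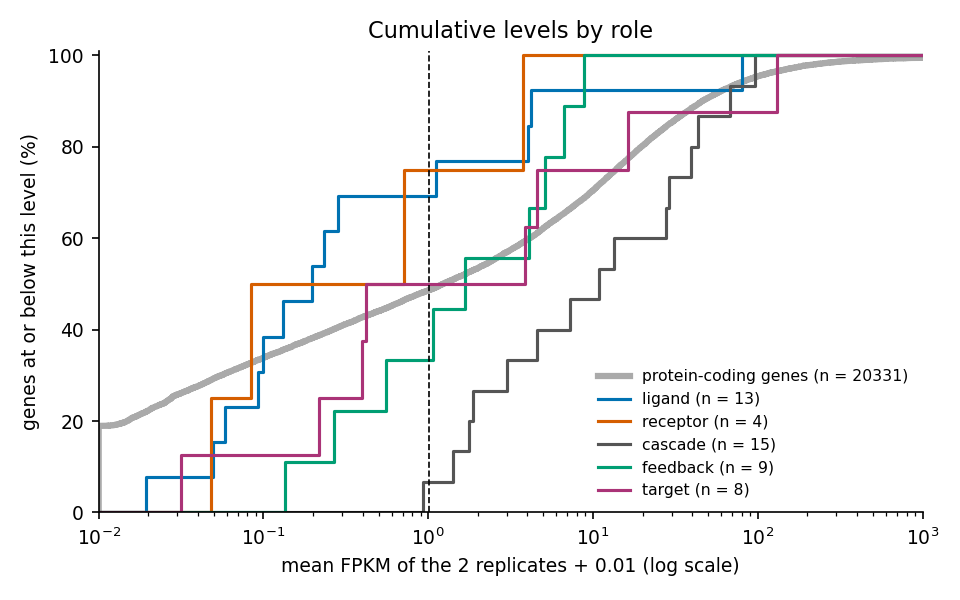
Cumulative share of genes (vertical axis, percent) at or below each mean FPKM, plus 0.01, on a log axis, for each role and for 20331 protein-coding genes in grey. The cascade curve lies to the right of the grey curve over most of the range, with a median of 10.8 against 1.22, and the FGF and receptor curves reach 69% and 75% below the dashed line at FPKM 1.

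Among the ligands, RNA was mostly that of Fgf4. It stood at an FPKM of 81.6 and 79.0, rank 1184 among protein-coding genes. Both replicates lay far above every other FGF gene, and the mean was 19.0 times that of Fgf17, the next in order. Over all 22 FGF genes measured, which include 9 that are not among the 49, Fgf4 held 87.3% and 87.0% of the summed FPKM.

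Only 3 further ligands of the 13 were detected. Fgf17, a member of the Fgf8 subfamily, had an FPKM of 4.23 and 4.21. Fgf3, a ligand known from inner ear and tail development, had 4.66 and 3.42, and its replicates lay on either side of those of Fgf17, so these neighbours in the order do not lie apart. Fgf10, a ligand for the epithelial form of Fgfr2, was close to the limit at 1.04 and 1.17.

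The remaining 9 FGF genes were below an FPKM of 0.5 in each replicate. Fgf5, the ligand that marks the primed epiblast, was at 0.0340 and 0.0637, and Fgf8, which acts in the gastrulating embryo, at 0.0616 and 0.310. Fgf4 exceeded Fgf5 by 6.28 ± 0.06 and Fgf8 by 6.11 ± 0.25 in log2(FPKM + 1), a scale that understates differences from genes near 0. Fgf2, the ligand added to cultures of primed cells, was at 0.0248 and 0.0539, and Fgf1, the ligand able to bind all FGF receptors, at 0.116 and 0.127. The levels of both are uncertain, since Fgf1 lies wholly within the span of Arhgap26 (1.23 and 1.49) and Fgf2 overlaps Nudt6 (0.850 and 1.11) and Fgf2os (listed at 0). Fgf15, an endocrine ligand, was at 0.0811 and 0.0972, and Fgf18 at 0.133 and 0.0332. Fgf13, which encodes an intracellular protein that binds sodium channels and is not a classical ligand, was at 0.164 and 0.386. Fgf9 had values of 0 and 0.0187. Of the 12 steps down the order of FGF genes, 5 separated genes that lie apart, so below Fgf10 the order is mostly not resolved.

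Fgf7, a ligand made by mesenchymal cells, differed most between the replicates among members above 0 in both, with an FPKM of 0.0250 and 0.423. It was 17.0 times higher in replicate 2. Of the 6489 genes averaging less than 1 FPKM and above 0 in both replicates, 0.431% had a larger ratio in either direction. Genes at 0 in a single replicate have no finite ratio and were left out of that share. Fibroblast collagens moved the same way, Col1a1 from 0.0136 to 0.552, Col1a2 from 0.0101 to 0.917 and Col3a1 from 0.0481 to 0.809. Without Vim, which was high in both (261 and 279), 8 of 9 feeder fibroblast markers were higher in replicate 2. Of all 28592 genes, 10541 were higher in replicate 2 and 8009 were at 0 in both. The summed FPKM of the 9 feeder markers was 0.415 and 3.67. Dcn, Postn and Acta2 were at 0 in replicate 1, and Lum was at 0 in replicate 2. The part of such RNA in the Fgf7 value was not tested. The span of Fgf7 lies inside that of Fam227b, which was listed at 0 in both replicates.

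Neighbours within 1 cluster of FGF genes had very different levels. Fgf3 (chromosome 7, 144838612 to 144843348 on GRCm38), Fgf4 (144861386 to 144865245) and Fgf15 (144896532 to 144900953) are the 3 FGF genes of this cluster, 18038 and 31287 bases apart. The lncRNA Gm26793 (144894121 to 144899688), named after its values were seen, starts between Fgf4 and Fgf15 and covers 3157 of the 4422 bases of the Fgf15 span, and it was at 0.0514 and 0.0103. Fgf4 was above both flanking FGF genes, and above Fgf15 by 6.22 ± 0.05 in log2(FPKM + 1). The cyclin gene Ccnd1, 28978 bases beyond Fgf15 and itself a known ERK target, stood at an FPKM of 55.3 and 56.5. The nearest annotated neighbours of the cluster, Gm9711 and Gm39119, were not analysed here. Coding genes around it, named after their values were seen, were Ano1 at 0.0657 and 0.0958 and LTO1 at 10.7 and 11.9.

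Promoters were compared for the members that had a window in the RefSeq table on GRCm38.p6, 35 of 49 genes. The windows run from 250 bases before the annotated start to 50 bases after it, and the first was used where a gene had several. They were rich in CpG whether or not the gene was detected. A CpG count of at least 0.6 times that given by base composition was found in 20 of 23 detected members (87.0%) and in 10 of 12 others (83.3%), against 50.3% of 16300 protein-coding genes. Median GC content was 65.0% in detected members and 64.0% in the others. The upstream part is shown for Fgf4, the highest ligand, and Etv5, the highest member, and then for Fos and Dusp5, both below detection. Other members with a window, such as Fgf5 and Fgfr3, were lower than Fos and Dusp5. Capitals mark matches on either strand to 4 motifs that, like the genes shown, were chosen after the data were seen. The GC box, bound by Sp1 family factors, was searched as GGGCGG. The TATA box, which positions the start of transcription, was searched as TATAAA. The core of the cyclic-AMP response element was searched as TGACG, and the serum response element as the CArG box. No match overlapped one of a different motif.

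Fgf4, chr7:144861136-144861385, plus strand: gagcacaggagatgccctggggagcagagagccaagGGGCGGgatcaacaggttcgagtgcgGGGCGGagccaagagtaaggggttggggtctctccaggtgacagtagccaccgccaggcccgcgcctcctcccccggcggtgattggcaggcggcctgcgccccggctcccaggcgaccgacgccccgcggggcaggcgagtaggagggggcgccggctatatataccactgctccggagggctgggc
Etv5, chr16:22439571-22439820, minus strand: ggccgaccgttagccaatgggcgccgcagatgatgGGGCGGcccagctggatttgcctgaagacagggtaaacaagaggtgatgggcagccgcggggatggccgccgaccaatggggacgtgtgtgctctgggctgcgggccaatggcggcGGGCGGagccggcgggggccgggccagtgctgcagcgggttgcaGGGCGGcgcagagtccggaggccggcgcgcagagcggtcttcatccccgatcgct
Fos, chr12:85473640-85473889, plus strand: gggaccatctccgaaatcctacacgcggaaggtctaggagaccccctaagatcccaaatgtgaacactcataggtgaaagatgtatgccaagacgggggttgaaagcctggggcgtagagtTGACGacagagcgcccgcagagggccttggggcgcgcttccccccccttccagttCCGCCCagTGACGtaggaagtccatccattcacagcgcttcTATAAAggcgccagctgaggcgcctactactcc
Dusp5, chr19:53528895-53529144, plus strand: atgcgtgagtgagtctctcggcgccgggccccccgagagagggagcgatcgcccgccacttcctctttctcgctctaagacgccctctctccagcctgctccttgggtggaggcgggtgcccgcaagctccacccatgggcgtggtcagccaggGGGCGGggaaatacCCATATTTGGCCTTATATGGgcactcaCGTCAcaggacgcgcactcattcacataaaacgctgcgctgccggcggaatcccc

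In this stretch Fgf4 had 2 GC boxes and Etv5 had 3. The search took the exact letters TATAAA, so the run tatatata close to the start of Fgf4 is not marked. Lack of a mark there does not show that Fgf4 has no TATA element. Fos had a TATA box 33 to 28 bases before its start, with 2 cyclic-AMP response cores and 1 GC box. Dusp5 had 2 CArG boxes side by side, 82 to 73 and 72 to 63 bases before its start, and was the only one of the 35 members with that motif in the window. Sequence further upstream was not searched, and members on chromosome 18, Egr1 among them, had no window. Lack of a match in Fos or another member therefore does not show that the gene has no serum response element. Over the full first windows of protein-coding genes, the set that matches the 1 window used per member, the CArG box was in 1.55% and the GC box in 48.3%. The TATA box was in 12.7% and the cyclic-AMP response core in 24.6%. Over all 32851 windows used, which include further starts of the same genes, these shares were 1.63%, 35.7%, 13.6% and 20.8% in the same order. Among the 35 members, 24 had a GC box, 12 that core and 4 a TATA box. The ETS core CCGGAA was in 9 of them (19.8% of first coding windows and 14.9% of all windows), and the AP-1 site TGANTCA in none (7.07% and 7.81%). A match is a description of letters and not of a bound site.

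Of the receptors, Fgfr1 was the only one detected. Its FPKM was 3.66 and 3.89, and it held 84.0% and 80.6% of the receptor total. Fgfr2, the receptor linked to primitive endoderm fate, was below the limit in both replicates at 0.573 and 0.836. Fgfr1 lay above it by 1.49 ± 0.11 in log2(FPKM + 1), 6.38-fold and 4.66-fold in FPKM. Fgfr4 was at 0.0656 and 0.0831 and Fgfr3 at 0.0553 and 0.0207, and all neighbours in this order lie apart. The summed FPKM of the 4 receptors was 4.35 and 4.83, below the 81.6 and 79.0 of Fgf4 alone. The span of Fgfr1 overlaps the lncRNA Gm16159, listed at 2.43 and 0.246. Whether the authors' counting used strand is not given in the sources used here.

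The cascade from docking protein to kinases was present nearly throughout. Of the membrane-proximal genes, Frs2 had an FPKM of 1.70 and 1.82, and Grb2 had 7.6 and 6.91. Ptpn11, the phosphatase SHP2 that RAS activation requires, stood higher at 13.2 and 13.7. The exchange factor Sos1 was at 1.82 and 1.90. Its paralogue Sos2, at 0.927 and 0.923, was the only cascade gene among the members below the limit, and it missed it narrowly. Sos1 held 66.3% and 67.3% of the SOS total. These docking, adaptor and exchange genes were all below Hras and Nras in each replicate.

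Nras was the highest cascade gene among the members, with an FPKM of 104 and 88.8. Hras, at 39.3 and 39.5, lay below it by 1.26 ± 0.16 in log2(FPKM + 1). Among RAF kinases Araf (27.7 and 27.5) lay above Braf (4.43 and 4.63), 6.25-fold and 5.93-fold. Both MEK genes, whose products the inhibitor in 2i medium binds, were among the high members. Map2k1 was at 69.2 and 65.8 and Map2k2 at 44.5 and 42.5, so that Map2k1 held 60.9% and 60.7% of the MEK total. Mapk3, which encodes the kinase ERK1, was lower than either at 11.1 and 10.5.

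Ksr1, a scaffold for RAF, MEK and ERK, was low at 1.35 and 1.47. The ribosomal S6 kinases downstream of ERK were unequal. Rps6ka1 had an FPKM of 28.6 and 29.4 and Rps6ka3 had 2.94 and 3.06, a ratio of 9.73 and 9.60 in the single replicates. Rps6ka2 is not among the 49. Of the summed FPKM of Rps6ka1, Rps6ka2 and Rps6ka3, Rps6ka1 held 74.1% and 74.6%, and no other RSK gene was included. All 14 steps down the order of cascade genes separated genes that lie apart, so the order was the same in both replicates. Whether this is more than among other genes of like level was not computed. It runs from Nras over Map2k1, Map2k2, Hras, Rps6ka1, Araf, Ptpn11, Mapk3, Grb2, Braf, Rps6ka3, Sos1, Frs2 and Ksr1 to Sos2.

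Some detected members share their span with another annotated gene, which can affect a level where strand was not used. Of the 29 detected members 9 do so, and for 6 the other gene was measured. Apart from Gm16159 these were Uchl4 in Map2k1 (0.136 and 0.381), Gm12977 in Rps6ka1 (0.117 and 0.248), Syn1 at the end of Araf (0.216 and 0.250), Arhgef33 in Sos1 (0.119 and 0.161) and Gm11201 in Ksr1 (listed at 0). Each of these 5 was far below the member it overlaps.

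**Figure D3:**
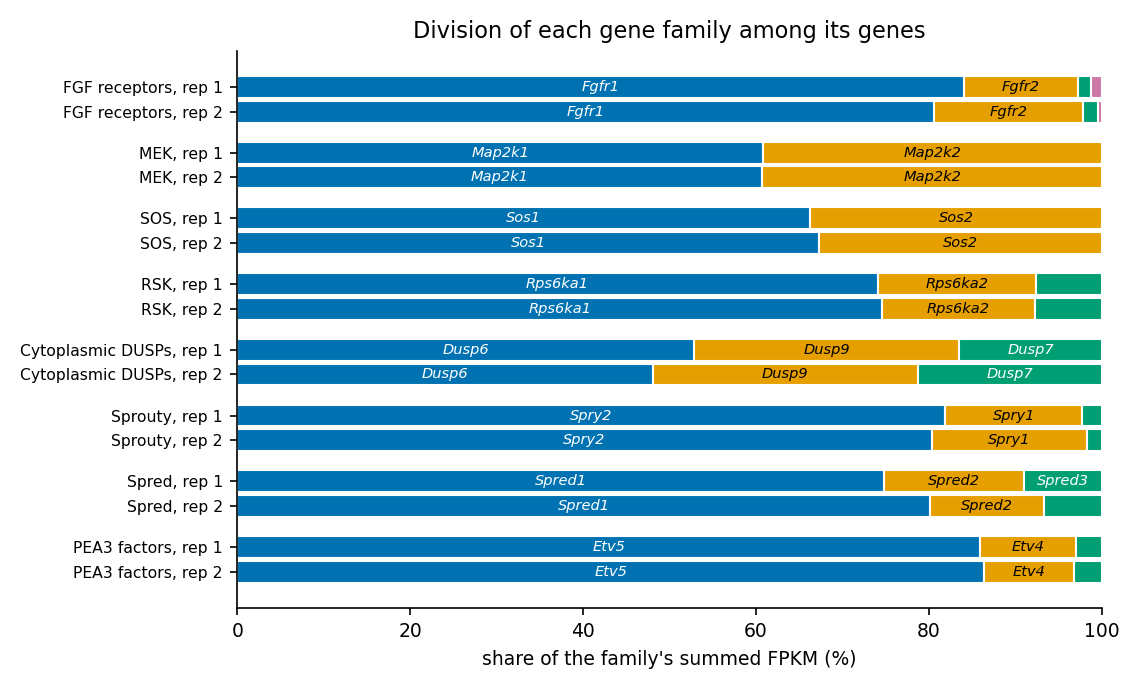
Share of each family's summed FPKM held by its genes (horizontal axis, percent), with a bar for each replicate and the genes ordered by their share in replicate 1 (the narrowest segments carry no label). Each family holds only the genes chosen for it, so RSK is Rps6ka1, Rps6ka2 and Rps6ka3, and Sprouty is without Spry3. In the 8 families drawn the same gene held the largest segment in both replicates, from 52.9% and 48.1% for Dusp6 to 85.9% and 86.4% for Etv5, and the FGF, JUN and FOS families are not drawn.

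Feedback inhibitors were at low to middle levels, none of them at an FPKM of 20. Spred1, which recruits the RAS-inactivating protein neurofibromin, was the highest at 8.43 and 9.09. It lay above Spred2 (1.83 and 1.5) by 1.87 ± 0.19 in log2(FPKM + 1). Among Sprouty genes, Spry2 was at 5.35 and 4.86 and Spry1 at 1.03 and 1.09, just above the limit. Spry4 was below it at 0.148 and 0.101. Spry2 held 81.9% and 80.3% of the total of these 3 genes.

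Of the 4 dual-specificity phosphatases among the members, the cytoplasmic Dusp6 and Dusp9 were detected, Dusp6 at an FPKM of 7.25 and 6.15 and Dusp9 at 4.2 and 3.92. Their values lie apart, by 0.60 ± 0.09 in log2(FPKM + 1). The nuclear phosphatases Dusp4 (0.564 and 0.522) and Dusp5 (0.218 and 0.297) were below the limit in both replicates. Dusp1, also nuclear and not among the 49, was detected at 8.31 and 6.58, above Dusp6 in each replicate. Dusp6 exceeded Dusp4 12.9-fold and 11.8-fold. All 8 steps down the order of feedback genes separated genes that lie apart.

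The target genes held both the highest of the 49 genes, Etv5, and one of the lowest, Egr1. Etv5, an ETS factor of the PEA3 group, had the highest FPKM of all 49 genes at 128 and 135, rank 709 among protein-coding genes. Its relative Etv4 was at 16.4 and 16.2, lower by 2.93 ± 0.07 in log2(FPKM + 1). With Etv1, the remaining PEA3 gene, Etv5 held 85.9% and 86.4% of the group's total.

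The other 6 target genes among the members were lower than both Etv5 and Etv4. Junb, an AP-1 subunit, was at an FPKM of 4.47 and 4.67, and Ier3, a stress-response gene, at 3.40 and 4.31. The other 4 targets were below the limit in both replicates. Fos was at 0.310 and 0.460, below Junb by 2.01 ± 0.07 in log2(FPKM + 1). Fosl1, another FOS gene, was at 0.416 and 0.398 and does not lie apart from Fos. Of the summed FPKM of the 4 FOS genes, which was only 0.789 and 1.10, Fosl1 held 52.7% and 36.2% and Fos 39.3% and 41.9%, so the larger share changed between the replicates. The span of Fosl1 overlaps that of Ccdc85b, which was at 12.7 and 11.5, so the Fosl1 level is uncertain. Phlda1, a gene induced by growth factors, was at 0.214 and 0.202. Egr1, a zinc-finger factor often used as a readout of ERK, was lowest at 0.00607 and 0.0369.

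The members were then compared between the replicates. None of the 29 members with a mean FPKM of at least 1 differed by more than 1.5-fold, against 2.65% of all genes at that level. Fgf3 differed most of them, at 1.36-fold. In the range of 1 to 5 the median absolute log2 ratio was 0.10 for 14 members and 0.17 for all genes. From 5 to 20 it was 0.11 for 7 members and 0.09 for all genes, and from 20 to 100 it was 0.05 for 7 members and 0.07 for all genes. Etv5, the only member averaging above 100, had 0.08 against 0.06. The members were thus closer between replicates than all genes in some of these ranges and further apart in others. Below 1 the median was 0.56 for members and 0.54 for all genes, in each case only those above 0 in both replicates. Besides Fgf7, ratios above 3 were seen for Egr1 (6.07-fold higher in replicate 2), Fgf8 (5.03-fold higher in replicate 2) and Fgf18 (4.0-fold higher in replicate 1). In 66.8% of the 2288 genes averaging less than 0.1 FPKM without a 0, the log2 ratio of the replicates came within 0.01 of that between integers no larger than 8. Log2 ratios spread evenly over the span of such integer ratios would do so in 14%. The ratios of low genes lay nearer to 0 than that, with the median of 0.54 given above, so 14% is not a matched reference. Whether low values are steps of whole reads was not tested. Egr1 and Fgf18 average less than 0.1, while Fgf7 and Fgf8 average more and were outside that count.

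**Figure D4:**
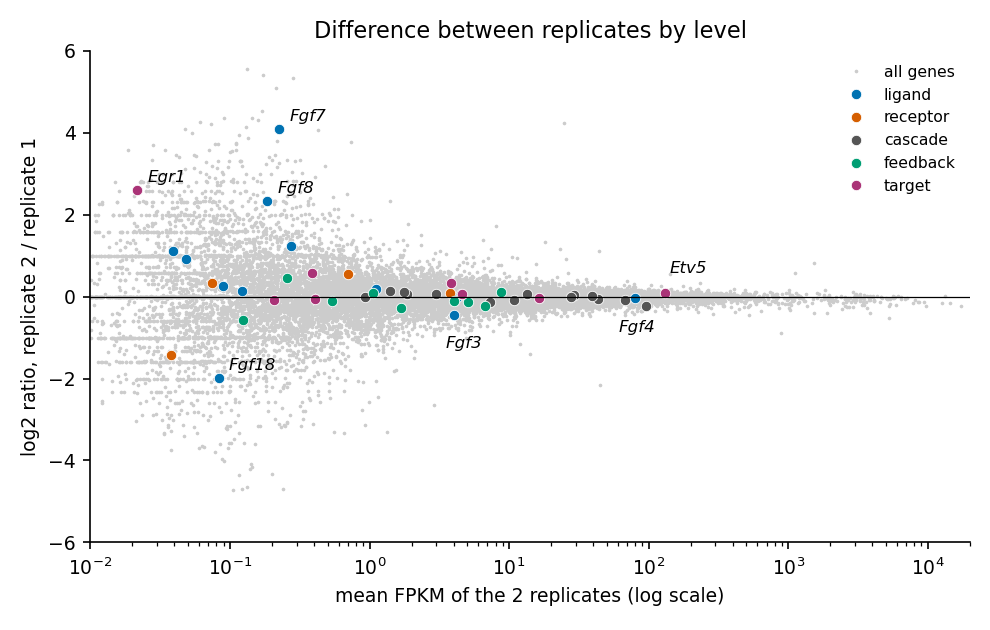
Log2 ratio of replicate 2 to replicate 1 (vertical axis, no pseudocount) against mean FPKM on a log axis, for all genes above 0 in both replicates in grey and for the members by role in colour. Members with a mean FPKM of at least 1 lie close to 0, and Fgf7, Egr1, Fgf8 and Fgf18 stand furthest from it among the low ones.

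Other genes of the pathway, taken from lists of names, were set beside the members. The background for each count is the 50.6% of protein-coding genes and 39.4% of all genes that were detected. Of the 9 remaining FGF genes only Fgf11, an intracellular relative of Fgf13, was detected, at an FPKM of 1.03 and 1.10. Fgf23 (0.178 and 0.210) and Fgf22 (0 and 0.187) followed, and Fgf6, Fgf12, Fgf14 and Fgf16 were listed at 0. Of 16 co-receptors and FGF-binding proteins 10 were detected, with a median FPKM of 1.89 ± 0.144. The heparan sulfate carriers Sdc4 (60.4 and 59.8), Gpc3 (25.3 and 23.2) and Sdc1 (11.3 and 9.32) led them. Flrt1 was at 0.0230 and 0.00916, and Kl, the co-receptor of endocrine FGFs, was listed at 0. Of 12 genes that build or edit heparan sulfate 9 were detected, with a median of 6.41 ± 0.300. The highest were the sulfatases Sulf1 (29.4 and 30.8) and Sulf2 (17.8 and 18) and the epimerase Glce (12.9 and 13.8), and the lowest the sulfotransferases Hs3st1 (0.0176 and 0.0703) and Hs6st2 (0.0189 and 0.0315).

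Of 19 further cascade genes 17 were detected, with a median FPKM of 15.3 ± 0.721. They were led by Pebp1, an inhibitor of RAF, at 421 and 401, the MEK scaffold subunit Lamtor2 at 82.4 and 68.7 and the adaptor Shc1 at 61.9 and 56.8. Gab2 (0.0403 and 0.0984) and Ksr2 (0.251 and 0.0499) were not detected. Of 15 other negative regulators 11 were detected, with Rasa1, a GTPase activator for RAS, at 18.2 and 18, Lztr1 at 16.1 and 16.3 and Dusp1 next. Dusp2 (0.0184 and 0.0552) and Dusp8 (0.00565 and 0.0394) were lowest. Their list median was 2.95 ± 0.258.

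Among 18 other nuclear effectors and targets 10 were detected (55.6%), close to the 50.6% of protein-coding genes, with a median FPKM of 2.62 ± 0.221. Ccnd1, Ier2 (28.1 and 27.0) and the ERK-controlled repressor Erf (19.2 and 21.4) were the highest, while Fosb was at 0.0147 and 0.0585 and Egr3 was listed at 0. Of 14 other receptor tyrosine kinases 5 were detected, with a median of 0.362. Kit, the stem cell factor receptor, stood at 20.9 and 21.3, above Fgfr1, followed by Erbb3 (2.71 and 2.46) and Axl (1.23 and 1.49). Erbb4 (0.00219 and 0) and Flt1 (0.00776 and 0.0120) were lowest. Of 11 genes of the p38, JNK and ERK5 branches 10 were detected, with a median of 14.2 ± 0.0448. Mapk8 (23.3 and 24.9), Mapk14 (19.7 and 18.7) and Map2k6 (15.6 and 14.4) led, and Mapk11 (1.38 and 1.21) and Mapk12 (0.865 and 0.910) were lowest.

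**Figure D5:**
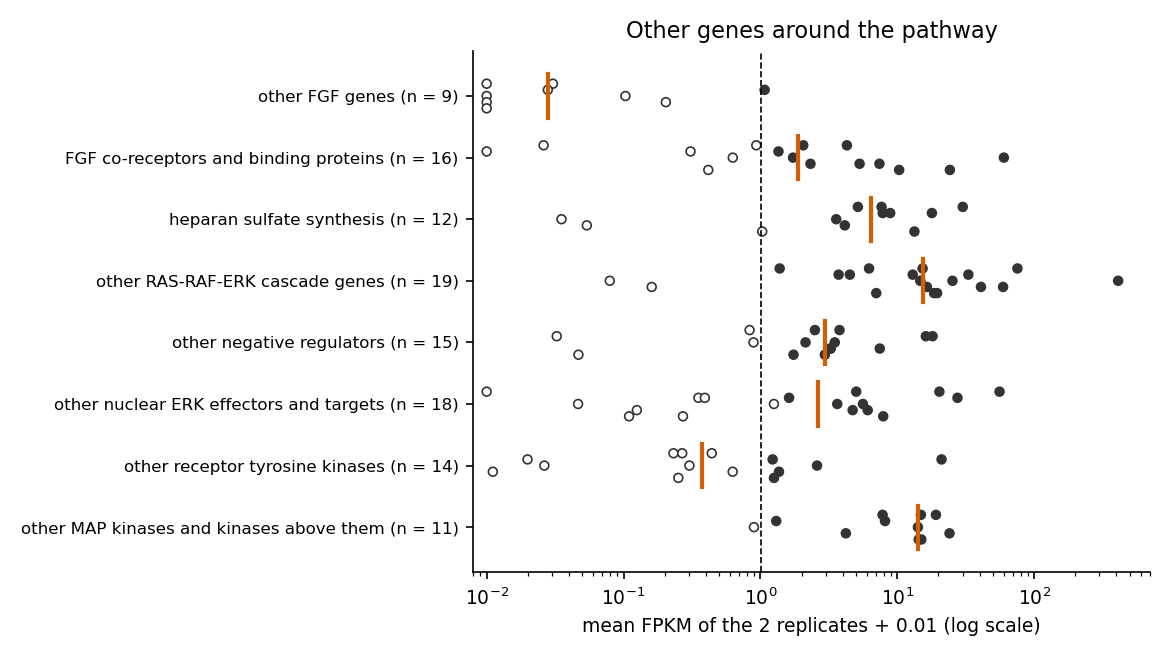
Mean FPKM, plus 0.01, on a log axis, of the genes in 8 lists around the pathway (filled points detected, open points not detected, orange bars the list medians, dashed line the limit of 1). The other cascade genes and MAP kinases have medians of 15.3 and 14.2, and the other FGF genes and receptor tyrosine kinases have medians below 1.

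Markers were checked against the labelled cell type, again beside the 50.6% of protein-coding genes detected. All 10 naive ES cell markers were detected, led by Dppa5a (7123 and 6972) and Pou5f1 (1005 and 947). Of 9 primed epiblast markers 4 were detected, with Dnmt3b (21.5 and 21.6) and T (12.9 and 11.9) highest, and Cer1 was at 0. Of 10 primitive endoderm markers 1 was detected, Lamb1 (6.59 and 6.87), with Hnf4a next (0.234 and 0.552) and Gata6 at 0 and 0.0173. Of 8 trophectoderm markers 3 were detected, Krt8 (15.4 and 14.3), Krt18 (2.05 and 1.89) and Cdx2 (1.13 and 1.46). Of 10 feeder fibroblast markers Vim alone was detected, with Col1a2 next.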

How the data were processed

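RNA was measured in 1 group of 2 replicates of E14TG2a ES cells in 2i/LIF. Per the labels' protocols, total RNA was extracted with TRIzol, depleted of ribosomal RNA and made into stranded libraries. The authors deposited FPKM per gene and replicate. The submitters' processing notes name the tools CASAVA, TopHat2 and Cufflinks and the builds mm10 and GRCm38. For tool versions, annotation release, strand use and library scaling: not given in the sources used here. Because Cufflinks estimates abundances, a gene with an FPKM of exactly 0 is reported as listed at 0. Depth in reads is not known, and no count model or interval was used.

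Columns were matched to replicates by the samples' descriptions, and identifiers to symbols for 28256 of 28592 genes. Types and spans came from RefSeq (GRCm38.p6), and promoter windows from its promoter table, without those on chromosome 18. Means, SDs, medians, shares and log2(FPKM + 1) differences (pseudocount 1) were computed with Python 3.11.15 and pandas 2.3.3. The ratio and scaling steps were tested on simulated data. A permutation or model-based test was not possible with 1 group.

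The members, lists and pairs were chosen with earlier results of these data known, and the gene families for shares and the promoter motifs after the values were seen. The text names all members, the 3 highest and 2 lowest genes of each pathway list, the 2 highest of each marker list, genes overlapping detected members and the neighbours of the Fgf4 cluster. The listed gene Spry3 was not analysed here, and 3 other listed genes are not reported here and were left out of the list counts and medians after their values were seen. Alternatives covered the detection limit, pseudocount, TPM, scaling and single replicates.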

Additional observations from a re-analysis of the deposited data

How the results depend on the processing

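No paired analysis was possible because the series has 1 group. The counts of detected members depended on the limit. At an FPKM of 5 there were 14 members in all, 1 FGF gene, 0 receptors, 9 cascade genes, 2 feedback genes and 2 targets. At 0.5 there were 2 receptors, and at 0.1 there were 2 receptors and 7 targets. Among the other lists, a limit of 5 gave 0 other FGF genes, 5 co-receptors, 3 negative regulators, 6 nuclear effectors and 1 receptor tyrosine kinase. A limit of 0.1 gave 2 other FGF genes and 11 receptor tyrosine kinases. Rescaling to TPM and the use of single replicates kept each count within 1.5 times its value. The median over all members was 1.76, and 1.82 in each single replicate. With members under a mean FPKM of 0.1 left out the medians were 3.85 for all members, 0.690 for FGF genes, 2.24 for receptors and 3.85 for targets. Rescaled to TPM the median was 1.88 for all members and 11.5 for the cascade. All 19 related pairs lay apart on FPKM and on TPM. The share of arbitrary gene pairs that lie apart was not computed. Pseudocounts of 0.1 and 0.01 cannot turn the direction of a pair and could change only the size of its difference. With 0.01 the differences ran from -3.56 to 10.5 log2 units. The number of reads is not known, so the counting error of low levels could not be given.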

Other observations

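In the pathway lists, 2 genes averaging 1 FPKM or more differed over 1.5-fold between the replicates, and both were named after their values were seen. They were 1 of 10 co-receptors and binding proteins and 1 of 11 nuclear effectors and targets at that level. None differed so in the other lists, which held 1, 10, 17, 11, 5 and 10 such genes. Of all genes at that level 2.65% differed over 1.5-fold. Fgfrl1, a receptor-like FGF-binding protein without a kinase domain, was at 5.39 and 3.17, and Atf3, a stress-induced factor, at 1.76 and 0.730. Jun, the partner of Fos, was at 0.427 and 0.339, so that Junb held 91.3% and 93.2% of the total of Jun and Junb. Klb, the co-receptor through which Fgf15 acts, was at 0.537 and 0.700. Il17rd, a membrane inhibitor of FGF signalling, was at 7.56 and 7.25. These genes too were named after their values were seen.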
